A study of Mus musculus with 8 samples.

Results

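The genes described here are the core of the Notch pathway in mouse small intestine: 4 receptors (Notch1, Notch2, Notch3 and Notch4), 4 ligands (Jag1, Jag2, Dll1 and Dll4) and 2 direct target genes (Hes1 and Hey1). They were chosen by name, and every probe set annotated to them was taken, whatever its value. This gave 17 probe sets of the 22690 on the array, for 10 of the 12394 genes with a probe set of their own, and 0 of the 17 were shared with another gene. For 9 probe sets of 7 genes the mean signal over all arrays reached the filter of 38.8, the 40th percentile of all signals. Notch4, Jag1 and Hey1 had no probe set above it and were not tested. The 7 tested genes stand among 8094 tested genes in all.

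RNA came from unfractionated small intestine. The animals were C57/Black6 females, 6 weeks old, from the Jackson Laboratory, with no genotype other than this strain in the labels. Mice received DMSO (the vehicle group), 15 mg/kg of dexamethasone, a glucocorticoid, 10 umol/kg of DBZ, which inhibits gamma-secretase, or both agents at these doses (the combination), once daily into the peritoneum for 5 days. The study design states 2 mice per group, and the segment of the small intestine is not given. Affymetrix arrays were used, and the authors made their signal per probe set with MAS5. The columns of both DBZ samples had the same value for 22684 probe sets, and for the 6 others 1 column was at 0. They were used as 1 array, which leaves 7 arrays: 1 after DBZ alone and 2 in each of the other groups. The DBZ array was assumed in the tests to vary like the other groups, and p-values measure only the spread between these arrays, whose number limits the precision. In bulk tissue, fewer cells of a type and less RNA per cell cannot be told apart.

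Notch receptors sit in the membrane and bind Delta-like and Jagged ligands on a neighbouring cell. Binding exposes the receptor to an ADAM protease and then to gamma-secretase, which frees the intracellular domain to enter the nucleus, join the DNA-binding protein RBPJ and switch on repressors of the Hes and Hey families. In the intestinal crypt Dll1 and Dll4 on secretory cells signal through Notch1 and Notch2 on their neighbours, where Hes1 represses Atoh1 and so keeps cells out of the secretory fate. Gamma-secretase inhibitors act on the receptor protein after its synthesis, and the arrays measure RNA only.

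Promoter windows from 250 bases before to 50 after the start of transcription were available for 8 of the 10 genes, in 9 windows (RefSeq, build GRCm38.p6); Hes1 and Hey1 had no entry. The windows of Notch3, Dll4 and Notch2 are shown because of their signals in the DBZ array. On the probe sets that represent the 7 tested genes, this array was lowest for Notch3 and Dll4 and highest for Notch2. On the other tested Dll4 probe set it was highest. Capitals mark the N-box CACNAG or its reverse complement CTNGTG, the sequence bound by Hes proteins. The Notch3 window lies at chr17:32166841-32167140 on the minus strand, the Dll4 window at chr2:119325534-119325833 on the plus strand, and the Notch2 window at chr3:98013288-98013587 on the plus strand.
Notch3: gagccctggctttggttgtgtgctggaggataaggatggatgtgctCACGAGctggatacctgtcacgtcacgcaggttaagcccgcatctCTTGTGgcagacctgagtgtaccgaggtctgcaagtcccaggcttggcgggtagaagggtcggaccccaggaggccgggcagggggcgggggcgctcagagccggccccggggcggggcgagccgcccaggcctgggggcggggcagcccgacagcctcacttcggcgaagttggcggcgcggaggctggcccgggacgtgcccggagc
Dll4: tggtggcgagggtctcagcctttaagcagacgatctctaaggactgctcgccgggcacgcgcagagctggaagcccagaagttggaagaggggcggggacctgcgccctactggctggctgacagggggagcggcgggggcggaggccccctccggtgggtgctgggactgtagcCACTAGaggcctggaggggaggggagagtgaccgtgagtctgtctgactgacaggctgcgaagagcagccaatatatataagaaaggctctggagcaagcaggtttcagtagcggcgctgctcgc
Notch2: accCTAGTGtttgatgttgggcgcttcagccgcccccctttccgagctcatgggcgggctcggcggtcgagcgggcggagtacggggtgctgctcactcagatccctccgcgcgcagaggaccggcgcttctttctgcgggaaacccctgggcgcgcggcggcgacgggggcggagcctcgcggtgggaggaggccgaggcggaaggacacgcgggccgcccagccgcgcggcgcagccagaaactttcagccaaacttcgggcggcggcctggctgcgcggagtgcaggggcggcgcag
The Notch3 window held 2 N-boxes, at -204 and -159 from the start of transcription. The Dll4 window held 1 at -75, and the Notch2 window held 1 at -247. Both strands were searched, and 5 of the 9 windows had an N-box, against 42.5% of the 32851 mouse windows of the same length. The RBPJ motif GTGGGAA, with its reverse complement TTCCCAC, was in 0 of the 9 windows and in 6.38% of all windows. These are matches of letters and were not tested for binding.

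The vehicle arrays were deposited at a trimmed mean of 500 and all others at 250, and every array was brought to 250 here. On the deposited scale the median of all tested probe sets was -0.999 for DBZ, -0.92 for dexamethasone and -0.99 for the combination against vehicle (log2), so all changes below are relative to equal trimmed means. Ratios of 3' to 5' signal, a sign of RNA integrity, were highest on the DBZ array, at 1.80 for Gapdh and 2.17 for beta-actin, against at most 1.22 and 1.79 on the other arrays. All 11 epithelial markers searched, Epcam and Vil1 among them, were above the filter. The summed signal of 6 ileal markers was 4469 and 5205 on the vehicle arrays and 8008 to 22559 on the treated arrays. The sum of 7 proximal markers was 24537 and 26982 against 8124 to 16718, so markers of position along the gut differed between vehicle and every treated group. Muscle and fibroblast markers differed in the same split: 5 to 7 of 12 smooth muscle and pericyte genes and 4 to 6 of 8 fibroblast genes were called higher in each treated group against vehicle. Of 4 T cell list genes tested, the granzymes Gzma and Gzmb fell in each treated group, and Ptprc and Cd8a passed in none against vehicle. The part of these differences in the results against vehicle was not tested.

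Among the receptors, Notch1 and Notch2 are the ones known to act in crypt epithelium. The Notch1 probe set with the highest mean (1418634_at) read 94.4 and 119.6 on the vehicle arrays, 78.0 and 95.9 after dexamethasone, 90.4 after DBZ, and 72.1 and 86.5 after both drugs. Vehicle lay above DBZ and above the combination without overlap, and overlapped dexamethasone. The other tested Notch1 probe set (1418633_at) read 61.2 and 46.5 in vehicle, 39.6 and 32.5 after dexamethasone, 39.0 after DBZ, and 39.8 and 56.9 after both drugs. There the dexamethasone arrays were at or near the low end and the combination overlapped vehicle, and the pair of probe sets followed each other only weakly (r = 0.18 over 7 arrays).

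On its tested probe set, Notch2 had its highest signal in the DBZ array. Its signal (1455556_at) was 99.1 and 74.5 in vehicle, 103 and 83.9 after dexamethasone, 121 after DBZ, and 72.7 and 67.6 after both drugs. The combination arrays were the lowest and DBZ stood above all others, while vehicle and dexamethasone overlapped. The second Notch2 probe set (1451889_at) was below the filter and ran from 7.39 to 54.3, with r = -0.42 against the first.

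Notch3, a receptor best known from vascular smooth muscle and pericytes, showed the largest difference of the 7 tested genes against vehicle. Its signal (1421965_s_at) was 53.5 and 54.8 in vehicle, 39.2 and 49.4 after dexamethasone, 14.3 after DBZ, and 43.7 and 44.0 after both drugs. DBZ was far below the 6 other arrays, which lay between 39.2 and 54.8. The second Notch3 probe set (1421964_at), below the filter, read 20.2 and 11.95 in vehicle, 17.7 and 17.3 after dexamethasone, 2.51 after DBZ, and 1.26 and 2.66 after both drugs. On that probe set all 3 arrays with DBZ were below the 4 without. The 3 with DBZ and the second vehicle array were under the pseudocount of 12.3 that was added before taking log2. Order carries little among signals under that value. The first vehicle array and both dexamethasone arrays, at 17.3 to 20.2, were above the pseudocount. Notch4, the endothelial receptor, stayed below the filter on both probe sets, with signals of 18.2 to 37.6 (1449146_at) and 1.96 to 26.0 (1456263_at).

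Among the ligands, Dll1, made by secretory progenitors of the crypt, read 348 and 547 in vehicle, 214 and 295 after dexamethasone, 295 after DBZ, and 222 and 428 after both drugs (1419204_at). Vehicle was above dexamethasone and above DBZ without overlap, and overlapped the combination, whose own arrays lay far apart. Dll4, a ligand of crypt and endothelial cells, gave opposite readings on its pair of probe sets. The first (1421826_at) was 79.5 and 62.6 in vehicle, 54.9 and 49.2 after dexamethasone, 35.2 after DBZ, and 57.1 and 66.9 after both drugs, with DBZ lowest. The second (1421827_at) was 60.1 and 41.6, 48.8 and 57.9, 88.9, and 52.6 and 50.7 in the same order, with DBZ highest. With r = -0.65 between them over 7 arrays, no direction can be given for Dll4 as a gene, and the first probe set, which has the higher mean, stands for it in counts below.

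Jag2, a Jagged ligand, was highest in vehicle at 64.2 and 61.9, against 43.5 and 35.5 after dexamethasone, 31.4 after DBZ, and 30.4 and 34.4 after both drugs (1426430_at). All 5 treated arrays were below both vehicle arrays, and all 3 arrays with DBZ were below the 4 without, by a narrow margin of 34.4 to 35.5. Its second probe set (1426431_at) had signals of 2.51 to 13.7, near or under the pseudocount. Both Jag1 probe sets, also below the filter, had their lowest signal in the DBZ array, at 1.03 (1421105_at) and 1.37 (1421106_at). The first read 4.92 and 11.97 in vehicle, 18.2 and 28.4 after dexamethasone, and 6.19 and 5.33 after both drugs, so the dexamethasone arrays were the highest.

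**Figure D1:**
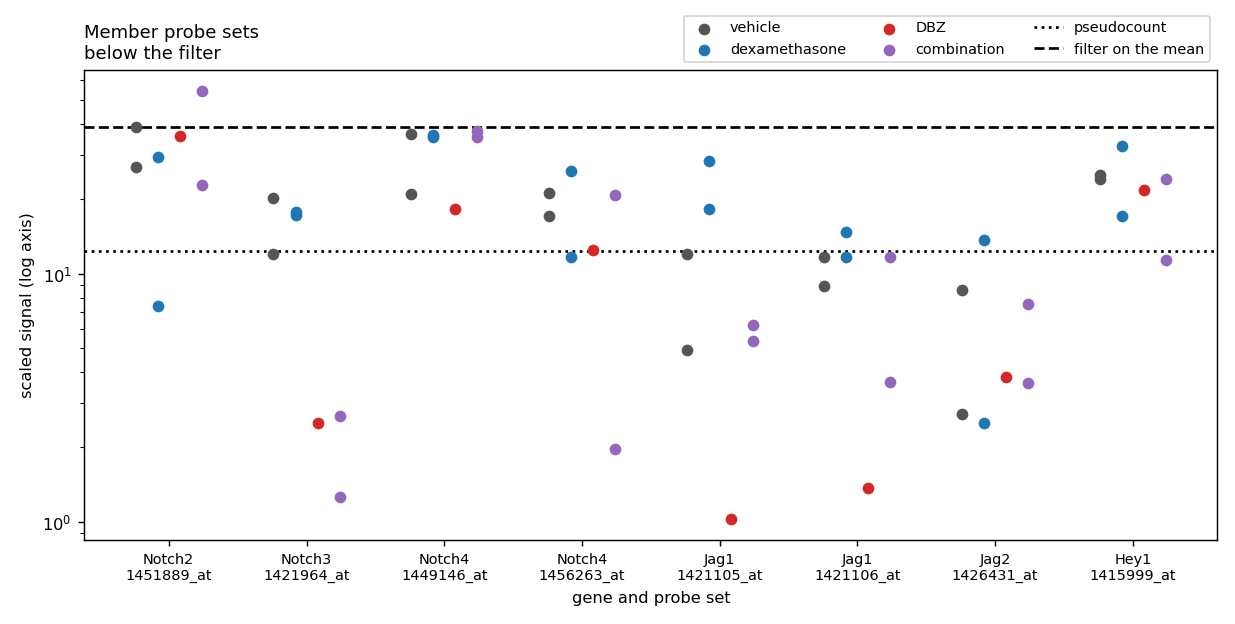
Scaled signal (log axis) of the 8 probe sets of the 10 genes whose mean was below the filter, 1 point per array, coloured by group, with dotted line at the pseudocount (12.3) and dashed line at the filter (38.8). Most points for Jag1, for Jag2 and for Notch3 with DBZ lie under the dotted line, and the DBZ array is lowest on both Jag1 probe sets.

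Of the targets, Hes1, the Notch effector that represses Atoh1 in the crypt, was lowest in arrays with DBZ but overlapped the controls. Its signal (1418102_at) was 104 and 138 in vehicle, 123 and 155 after dexamethasone, 71.3 after DBZ, and 71.1 and 118 after both drugs. DBZ and the first combination array were below the 4 arrays without DBZ, and the second combination array lay between the vehicle arrays. Hey1, a target best known in vessels and heart, was below the filter at 24.01 and 24.98 in vehicle, 32.7 and 17.1 after dexamethasone, 21.7 after DBZ, and 24.1 and 11.4 after both drugs, with overlap between most groups.

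**Figure D2:**
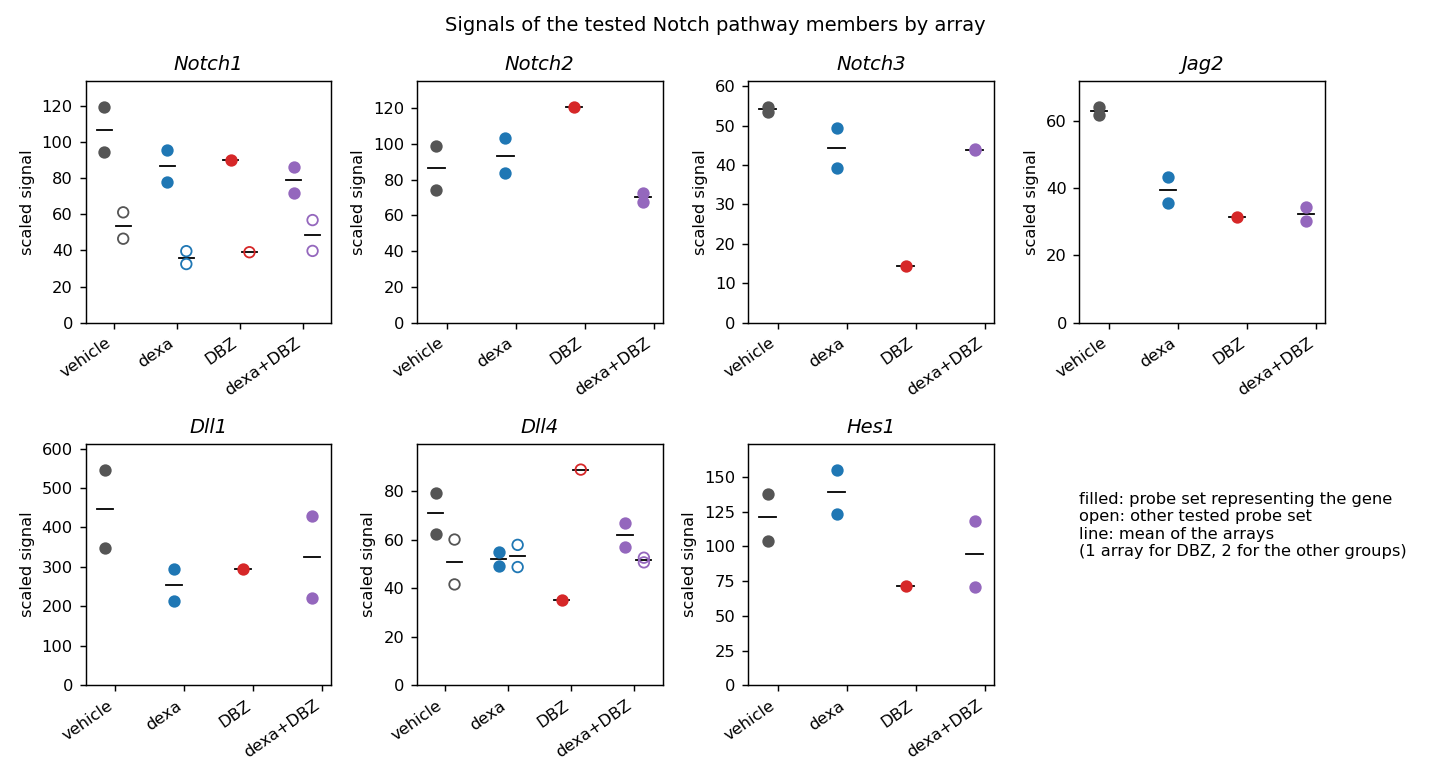
Scaled signal (linear axis from 0, different for each panel) of the 7 tested genes, 1 point per array with a line at the group mean (1 array for DBZ, 2 for each other group); filled points are the probe set that represents the gene and open points the other tested probe set. Notch3 at 14.3 in the DBZ array lies below its 6 other arrays, and the Dll4 probe sets, at 35.2 and 88.9 in the DBZ array, part in opposite directions.

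The comparison of DBZ with vehicle asks what gamma-secretase inhibition alone did. In limma's moderated test, 0 of the 7 genes passed an adjusted p of 0.05, against 8.34% of the 13638 probe sets tested. An unadjusted p under 0.05 was found for 2 of 7, against 26.4% of all tested probe sets. Notch3 had a log2 change of -1.32 ± 0.37 (SE), with a 95% interval of -2.14 to -0.50, and did not pass (limma adjusted p = 0.0541). The DBZ signal of 14.3 lies next to the pseudocount of 12.3, so the size of this change depends on the added constant: it was -1.85 with a pseudocount of 1 (limma adjusted p = 0.0468) and -0.70 with one of 50 (adjusted p = 0.0699). Without the intensity trend in the variance it passed (adjusted p = 0.027). It did not pass with quantile normalisation (0.0647), without the filter (0.111), with only the groups compared (0.0913), or with any 1 of the 6 other arrays left out (adjusted p from 0.0656 to 0.106). The Dll4 log2 change was -0.80 ± 0.34 (limma adjusted p = 0.165) on its first probe set and 0.70 ± 0.35 (adjusted p = 0.236) on the second. For Hes1 the log2 change was -0.66 ± 0.34 with a 95% interval of -1.42 to 0.10 and a limma adjusted p of 0.254, so the interval held both no change and a log2 change below -1. Jag2 changed by -0.79 ± 0.36, Dll1 by -0.55 ± 0.39, Notch1 by -0.21 ± 0.30 and Notch2 by 0.44 ± 0.30 on the log2 scale, and none of these passed; on the deposited scale the sign of Notch2 turned to -0.47. In 6 of 7 genes DBZ lay below both vehicle arrays, and in 1 above; over all tested probe sets the shares were 43.6% and 35.5%. The median log2 change of the 7 genes was -0.66, against -0.05 over all tested probe sets.

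Dexamethasone against vehicle asks what the glucocorticoid alone did, and shares its vehicle arrays with the comparison before. Here 0 of 7 genes passed in limma, against 12% of all probe sets, and 1 had an unadjusted p under 0.05, against 26.9%. That gene was Dll1, with a log2 change of -0.77 ± 0.32 and a limma adjusted p of 0.153. Jag2 followed with -0.55 ± 0.30 (adjusted p = 0.277). Hes1 had a log2 change of 0.19 ± 0.28 (limma adjusted p = 0.724), which became -0.74 on the deposited scale. Notch1, Notch2, Notch3 and Dll4 ranged from -0.37 to 0.10. Both dexamethasone arrays lay below both vehicle arrays for 4 of 7 genes and above for 0, against 26.7% and 29.5% of all tested probe sets.

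The combination against vehicle also uses those vehicle arrays. In limma 0 of 7 genes passed, against 7.44% of all probe sets, and 1, Jag2, had an unadjusted p under 0.05, against 24.2%. Its log2 change was -0.75 ± 0.30 with a limma adjusted p of 0.155. All 7 genes had a negative log2 change, from -0.75 to -0.16, with a median of -0.34 against -0.04 over all tested probe sets, of which 54% were negative. The combination arrays were below the vehicle arrays without overlap for 4 genes and above for 0, and the shares over all tested probe sets were 29.4% and 25%.

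Adding dexamethasone to DBZ, the combination against DBZ, gave 0 of 7 calls in limma, against 0.33% of all probe sets, with 2 genes at an unadjusted p under 0.05, against 12.3%. Notch3 was higher in the combination by a log2 change of 1.08 ± 0.37 (limma adjusted p = 0.273), a value that rests on the single DBZ array. Its second probe set, below the filter, was at -0.056 ± 0.38 in the fit without the filter. Notch2 was lower by a log2 change of -0.69 ± 0.30 (adjusted p = 0.396). The Dll4 values were 0.64 ± 0.34 on the first probe set and -0.66 on the second. Notch1, Jag2, Dll1 and Hes1 had log2 changes from -0.17 to 0.32. Non-overlap with the DBZ array was seen upward for 2 genes and downward for 2, against 38.3% and 36.2% of all tested probe sets.

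Adding DBZ to dexamethasone, the combination against dexamethasone, is the contrast for DBZ in which both sides have 2 arrays and which leaves out vehicle. In limma 0 of 7 genes passed, against 0.0293% of all probe sets, and 0 had an unadjusted p under 0.05, against 9.36%. Hes1 had a log2 change of -0.53 ± 0.28, a 95% interval of -1.15 to 0.09 and a limma adjusted p of 0.592. Notch2 was at -0.36 ± 0.25 and Jag2 at -0.21 ± 0.30. Notch3 was at -0.0053 ± 0.30, with a 95% interval of -0.67 to 0.66, and it turned to 0.086 under quantile normalisation. Its second probe set, below the filter, was at -1.06 ± 0.31 in the fit without the filter (limma adjusted p = 0.564). The combination arrays were under the pseudocount there. Combination arrays lay below the dexamethasone arrays without overlap for 3 genes and above for 1, against 26.8% and 16.9% of all tested probe sets.

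The interaction, the change by DBZ with dexamethasone minus the change by DBZ without it, tests whether the drugs changed each other's effect. In limma 0 of 7 genes passed, against 4% of all probe sets, and 2 had an unadjusted p under 0.05, against 20.5%. Notch3 had an interaction of 1.31 ± 0.47 on the log2 scale (limma adjusted p = 0.154) and Dll4 one of 1.01 ± 0.43 (adjusted p = 0.225), which was -0.73 on its second probe set. Without the filter the second Notch3 probe set was at -0.14 ± 0.49. Dll1 was at 0.83 ± 0.50, Jag2 at 0.58 ± 0.47 and Notch2 at -0.79 ± 0.39, and on the deposited scale Notch2 turned to 0.11. Hes1 was at 0.13 (adjusted p = 0.901) and Notch1 at 0.095. A shift shared by all treated arrays against vehicle enters this contrast with the opposite sign, and the vehicle arrays are the ones that stood apart.

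**Figure D3:**
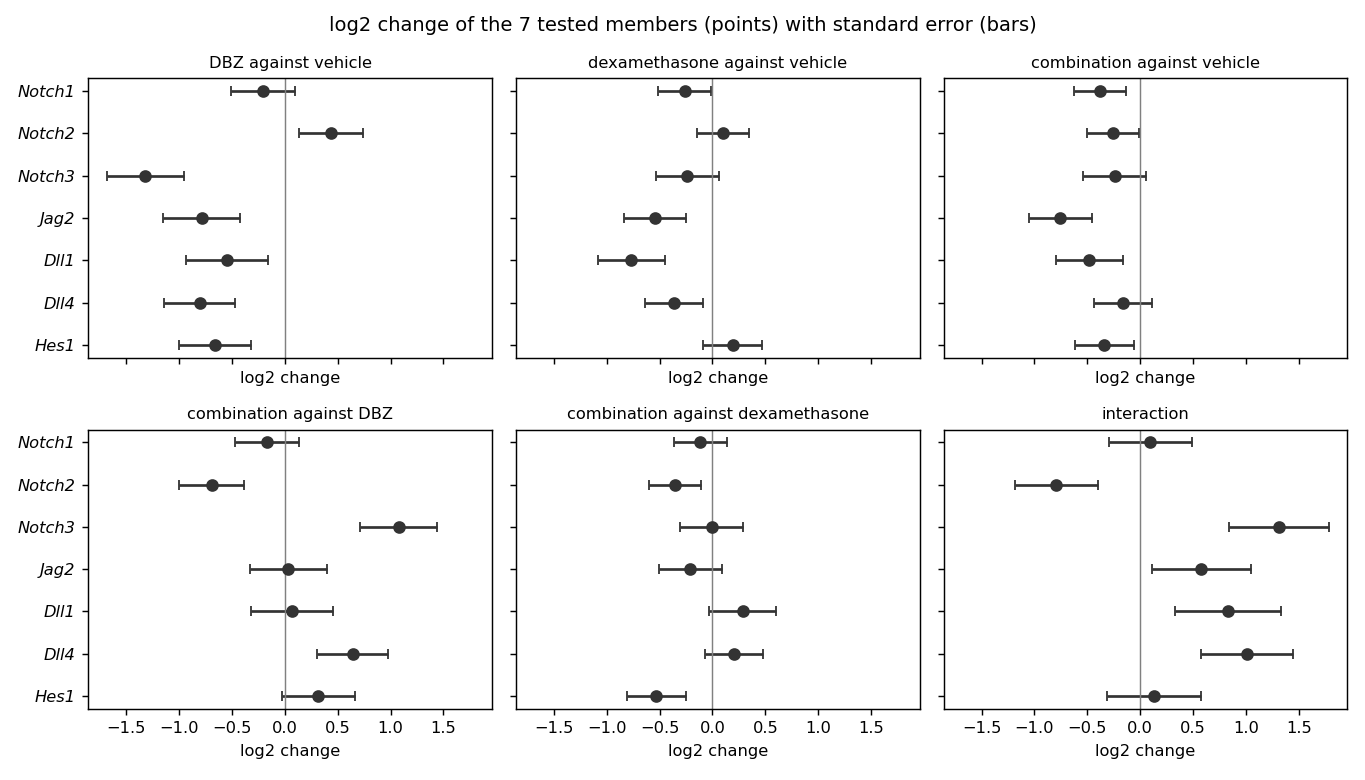
log2 change (points) with standard error (bars) of the 7 tested genes in the 5 comparisons and the interaction, from the limma fit on 7 arrays; 0 of 7 genes passed an adjusted p of 0.05 in each. Notch3 at -1.32 is farthest from 0 in DBZ against vehicle and lies at -0.0053 in the combination against dexamethasone. The Notch2 point at 0.44 for DBZ and the Hes1 point at 0.19 for dexamethasone, both against vehicle, turn negative on the deposited scale. On that scale the median of all tested probe sets was -0.999 for DBZ and -0.92 for dexamethasone against vehicle.

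The arrays can also be split by DBZ alone, 3 with it and 4 without, a description that was added after the values were seen. Of the 7 tested genes, 1 (Jag2) was lower on all arrays with DBZ than on all without, against 6.76% of all tested probe sets, and 0 were higher, against 2.96%. Among 51 other tested genes of the pathway, 7 were lower in this sense and 3 higher. Heyl, a relative of Hey1 named after its values were seen, was below the filter, at 15.0 to 16.5 with DBZ and 23.0 to 38.6 without.

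Markers of proliferating cells were low in the DBZ array, as were Hes1 and Notch3. The summed signal of 8 cycling-cell genes was 3819 and 3125 in vehicle, 2929.6 and 3493 after dexamethasone, 1794 after DBZ, and 2099.9 and 3106 after both drugs. In DBZ against vehicle 8 of 8 were lower and 4 fell past the limma threshold, which 8.34% of all tested probe sets passed in either direction. In the combination against dexamethasone 8 of 8 were lower and 0 passed, with 3 at an unadjusted p under 0.05. Over all tested probe sets 58.3% were lower there, with 9.36% at an unadjusted p under 0.05. Across the 7 arrays this sum had r = 0.82 with Hes1, 0.81 with Notch3 and 0.73 with Dll4, given as a description of arrays that share groups. For Notch3 the DBZ array, at 14.3, lay apart from the others, at 39.2 to 54.8. In the combination against dexamethasone, where the cycling genes were lower, the tested Notch3 probe set was at -0.0053. The part of cycling cells in the values of Hes1, Notch3 and Dll4 was not tested.

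Markers of muscle, pericytes and endothelium stand beside Notch3 and Dll4. The summed signal of 12 smooth muscle and pericyte genes, most of it from contractile genes such as Acta2 and Tagln and from Rgs5, was 8857 and 11653 in vehicle, 17958 to 26499.8 on the treated arrays, with 23593 in the DBZ array, and had r = -0.60 with Notch3 over 7 arrays. Its single genes were not alike: the pericyte gene Cspg4 was 24.2 in the DBZ array, its lowest, against 26.4 to 64.5 on the others, and Mcam had a log2 change of -0.09 ± 0.45 (limma adjusted p = 0.919) in DBZ against vehicle, while Kcnj8 rose by 1.71 (adjusted p = 0.0252). The sum of 15 endothelial genes was 1019 in the DBZ array, its highest, and 634 to 902 on the others, with r = -0.80 with Hes1 and -0.27 with Dll4. Of 11 of these tested in DBZ against vehicle, 8 were higher, 3 lower and 0 passed. Cdh5 was 40.2 in the DBZ array against 76.0 and 69.9 in vehicle, and Kdr 148 against 95.5 and 64.3. For Jag2, highest in vehicle, the T cell sum had r = 0.87; it was 1583 and 2028 in vehicle and 629.7 to 900.3 on treated arrays. Gzma made up 921 and 1163 of the vehicle sums and read 285 in the DBZ array. Gzmb was low there too, at 37.7 (242 and 274 in vehicle). Ptprc read 383 in the DBZ array (218 and 367 in vehicle) and Cd8a 49.1 (57.6 and 48.0). Of the genes below the filter, Cd2 read 31.97 (14.8 and 28.0), Cd3d 22.5 (21.9 and 34.4), Cd3e 44.3 (44.4 and 56.4) and Cd3g 47.1 (62.8 and 57.1). Notch1 and Dll1 had r = 0.82 and 0.69 with that sum, and -0.88 and -0.79 with the fibroblast sum.

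**Figure D4:**
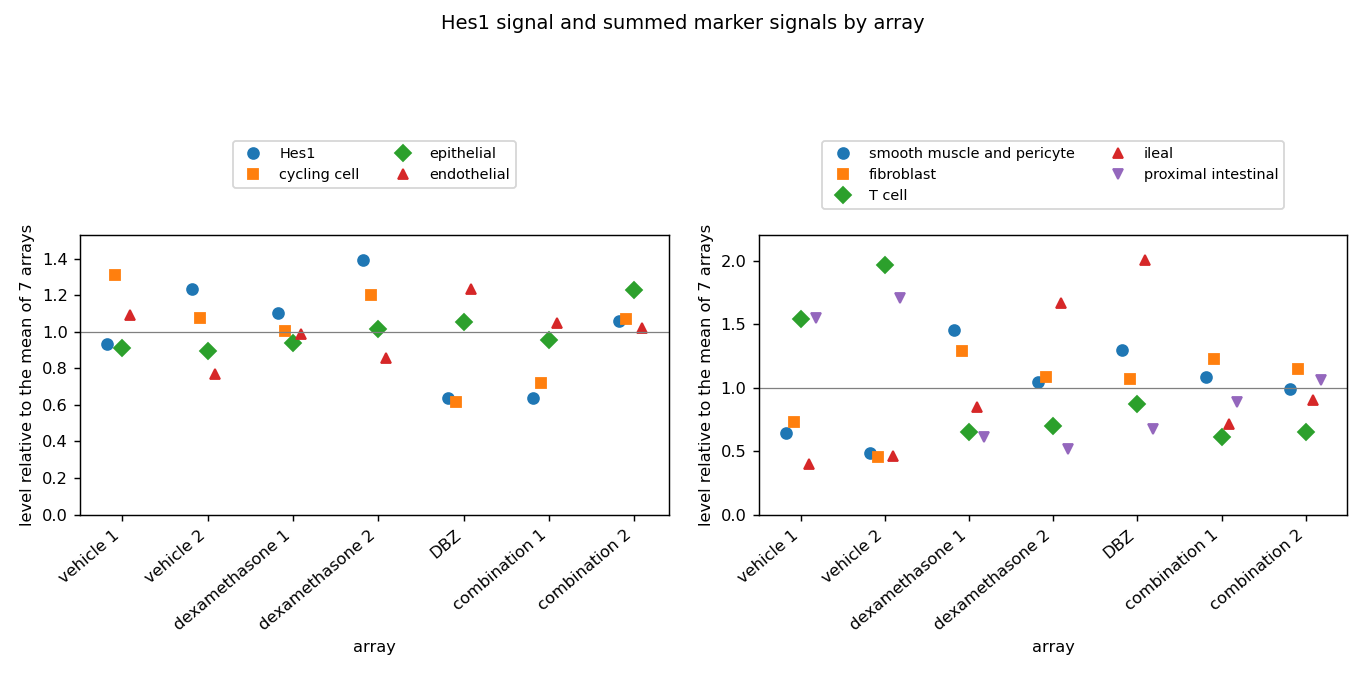
Hes1 signal and the summed signal of marker lists on each of the 7 arrays, divided by the mean over the 7 arrays (linear axis); the left panel holds Hes1 with cycling, epithelial and endothelial lists, the right panel lists of other cell types and of position along the gut. Hes1 and the cycling list are both low in the DBZ and the first combination array, and the vehicle arrays are set apart in the right panel.

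Around these genes, 75 others of the pathway were looked up in 6 lists, of which 67 had a probe set and 51 were tested. Of 14 genes for proteolysis, glycosylation and trafficking of Notch, 0 passed in any of the 6 contrasts in limma, with 0 to 2 at an unadjusted p under 0.05 in each. Sel1l, named for the worm gene that lowers Notch activity and known in mouse from disposal of misfolded proteins, read 387 and 393 in vehicle, 395 and 485 after dexamethasone, 263 after DBZ, and 539.1 and 535 after both drugs. DBZ was its lowest array, and the log2 change of the combination against DBZ was 0.996 ± 0.21 (limma adjusted p = 0.105), which passed when only the groups compared were fitted. Mfng, a fringe glycosyltransferase that alters which ligands a receptor binds, was at -0.95 ± 0.39 in DBZ against vehicle (adjusted p = 0.155).

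Subunits of gamma-secretase itself, the enzyme that DBZ inhibits, gave no call: of 4 tested (Psen2, Ncstn, Aph1a and Psenen), 0 passed in limma in any contrast and 0 had an unadjusted p under 0.05. The smallest p was that of Ncstn, the subunit that receives substrates, at a log2 change of -0.39 ± 0.20 in the combination against vehicle (adjusted p = 0.268). Psenen followed with 0.24 ± 0.18 (adjusted p = 0.437), which turned to -0.75 on the deposited scale.

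Among 15 tested genes of the nuclear complex and its co-repressors, Tle3, a Groucho-type co-repressor that Hes proteins recruit, rose in every treated group against vehicle. It read 239 and 271 in vehicle, 482 and 532 after dexamethasone, 748 after DBZ, and 639 and 482 after both drugs, so all treated arrays lay above both vehicle arrays. The log2 changes were 1.51 ± 0.23 for DBZ (limma adjusted p = 0.0075), 0.96 ± 0.19 for dexamethasone (adjusted p = 0.0119) and 1.09 ± 0.19 for the combination (adjusted p = 0.0106), with shared vehicle arrays. On the deposited scale the DBZ value was 0.54 and no longer passed. Its interaction of -1.38 ± 0.30 passed too (limma adjusted p = 0.0372). A shift shared by all treated arrays against vehicle enters the interaction with the opposite sign, and Tle3 was higher on all of them. Against either drug alone the combination had no call for Tle3 (limma adjusted p = 0.504 against DBZ and 0.87 against dexamethasone). Tle1, of the same family, fell in the combination against vehicle by 0.85 ± 0.18 on the log2 scale (limma adjusted p = 0.0216), from 421 and 491 to 244 and 249. That call was lost without the second vehicle array or without either combination array. Tle1 was also below both vehicle arrays in the other treated groups, without a call. It read 313 and 278 after dexamethasone (log2 change -0.60 ± 0.18, limma adjusted p = 0.0571). After DBZ it read 271 (-0.72 ± 0.22, adjusted p = 0.0725). The other 13 genes of this list had no call.

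Of 5 other ligands tested, 0 passed in limma in any contrast, with at most 1 at an unadjusted p under 0.05. Mfap5, a microfibril protein reported to bind Notch, was at 1.22 ± 0.41 for dexamethasone against vehicle (adjusted p = 0.0884), which passed at 1.83 without the first vehicle array, and the Delta-like homologue Dlk2 at -1.15 ± 0.44 for the combination against vehicle (adjusted p = 0.142).

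Of 6 other target genes tested (Hes6, Nrarp, Dtx1, Myc, Ccnd1 and Sox9), 0 passed in limma in any contrast, with 0 to 2 at an unadjusted p under 0.05. Sox9, a transcription factor of crypt stem and progenitor cells, read 81.2 and 84.1 in vehicle, 84.6 and 66.8 after dexamethasone, 26.7 after DBZ, and 30.8 and 57.1 after both drugs. All 3 arrays with DBZ were below the 4 without it. The log2 change was -1.28 ± 0.38 for DBZ against vehicle (limma adjusted p = 0.0657, past the threshold only when the groups compared were fitted alone or on the deposited scale) and -0.68 ± 0.31 for the combination against dexamethasone (adjusted p = 0.544). Ccnd1, the G1 cyclin D1, was at 0.64 ± 0.25 for dexamethasone against vehicle (adjusted p = 0.125) and at -0.33 on the deposited scale. In the combination against dexamethasone all 6 had a negative log2 change, with a median of -0.39 against -0.06 over all tested probe sets, of which 58.3% were negative.

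Downstream of Hes1, 7 factors of secretory specification were tested. Foxa1, a forkhead factor of goblet and enteroendocrine cells, rose with dexamethasone against vehicle by a log2 change of 1.69 ± 0.29 (limma adjusted p = 0.00609), from 152 and 113 to 590.2 and 343. Spdef, a factor of goblet and Paneth cell maturation, rose by 1.15 ± 0.32 (adjusted p = 0.043), from 76.5 and 42.8 to 162 and 126, and this call was lost on the deposited scale, without the filter, without the intensity trend, within the groups compared only, and without any 1 of 5 arrays. Atoh1, the factor that Hes1 represses, named after its values were seen, was at 0.83 ± 0.25 in that contrast (limma adjusted p = 0.0596) and at 0.10 ± 0.31 in DBZ against vehicle (adjusted p = 0.877). Dexamethasone against vehicle had 4 of the 7 higher and 3 lower, with Neurog3 at -0.72 ± 0.30 (limma adjusted p = 0.156). In DBZ against vehicle 0 of 7 passed, with 1 at an unadjusted p under 0.05. In the combination against dexamethasone 6 of 7 were lower, with a median of -0.55, 2 at an unadjusted p under 0.05 and 0 passing. Over all tested probe sets 58.3% were lower in this contrast, with a median of -0.06 and 9.36% at an unadjusted p under 0.05.

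**Figure D5:**
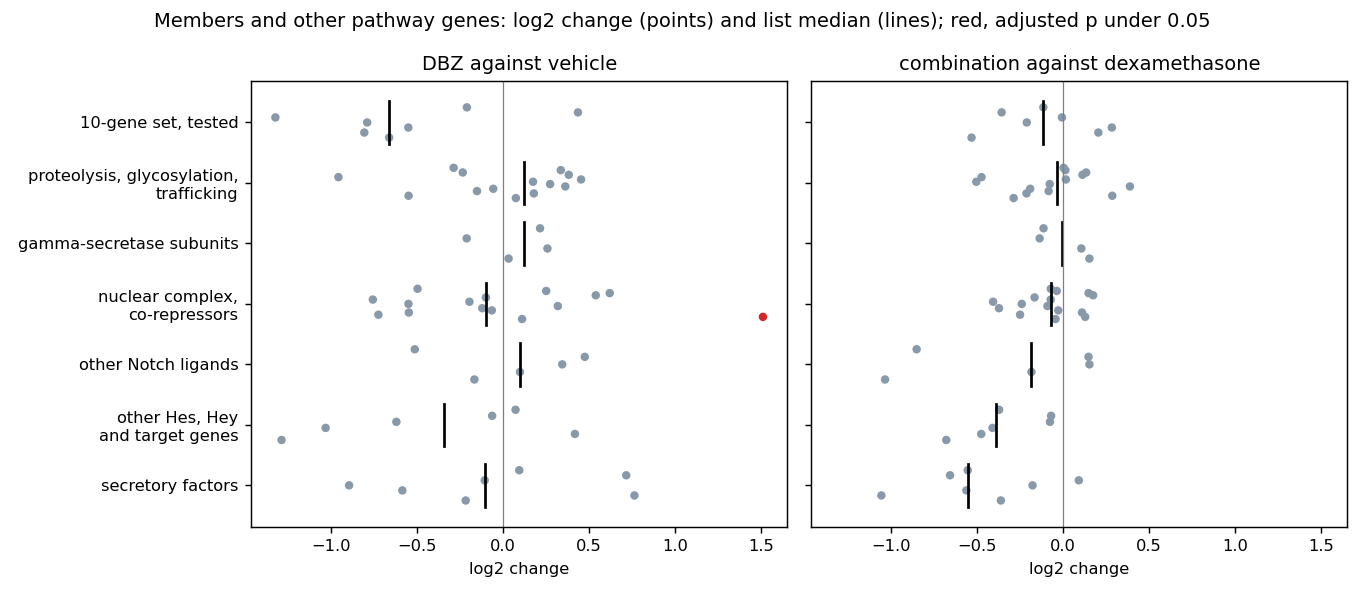
log2 change (horizontal axis) of the tested genes of the 10-gene set and of the 6 other lists in DBZ against vehicle (left) and the combination against dexamethasone (right); vertical lines are list medians and a red point passed the limma threshold. Tle3 at 1.51 is the 1 red point, the 10-gene set has a median of -0.66 on the left, and the lists of target genes and secretory factors have medians of -0.39 and -0.55 on the right.

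Across the 7 arrays, the 7 tested genes did not share a single profile. The closest pairs were Notch1 with Dll1 (r = 0.84) and Notch3 with Dll4 (r = 0.83), and the most opposed were Notch2 with Notch3 (r = -0.67). With Dll4 taken by its first probe set, the highest array was a vehicle array for 5 of 7 genes. The lowest was a combination array for 4 genes and DBZ for 2, and the shares over all tested probe sets were not computed. Over all tested genes the profiles most like each, by Pearson r of log2 values over 7 arrays, were Ccne2 (0.987) and Cert1 (0.961) for Notch1, Kansl2 (0.996) and Nrde2 (0.974) for Notch2, and Arf4 (0.993) and Ube2d3 (0.982) for Notch3. Those for the ligands were Ankrd17 (0.998) and Mrpl28 (0.993) for Jag2, Mrpl13 (0.954) and Klrd1 (0.952) for Dll1, and Chid1 (0.995) and Kitl (0.986) for Dll4. For Hes1 the profiles were Melk (0.981), a kinase of dividing cells, and Snrpb2 (0.965), a splicing protein. Each was picked as the highest r among 8094 genes over 7 arrays and is given only as a description.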

How the data were processed

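The intensity values, signal per probe set, were made by the authors with MAS5, per the submitters' processing notes, and deposited as 1 table for 8 samples; its version was not given in the sources used here. Groups came from the sample titles. Signals were scaled per array so that the trimmed mean was 250, leaving out 2% at each end, the pooled 20th percentile (12.3) was added, and log2 was taken. The 64 control probe sets and those with a mean under the pooled 40th percentile (38.8) were left out, which left 13638. Group means were fitted with limma 3.58.1 in R 4.3.3 with an intensity trend (residual degrees of freedom 3, prior 6.83), 2-sided, with Benjamini-Hochberg adjustment over all 13638 at 0.05. Values after ± are standard errors. Probe sets were named from the platform annotation, in which 20393 carried 1 symbol, 691 several and 1606 none; only those with 1 symbol were named.

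A gene was represented by its tested probe set with the highest mean. Of each pathway list the called genes (up to 4) or else the 2 with the smallest p were named, and for each member the 2 genes with the highest correlation. The members and lists were chosen with earlier results of these data known. Same-numbered replicates had correlations of their deviations from the group means of 0.049 (vehicle and dexamethasone), -0.12 (vehicle and combination) and 0.11 (dexamethasone and combination), so the numbers were not taken to pair the mice. The pipeline was tested on simulated data. Alternatives were the deposited scale, quantile normalisation, pseudocounts of 1 and 50, no filter or a filter at the 60th percentile (111), no intensity trend, only the groups compared, a replicate block, the other probe set of a gene, and each array left out; fits without the DBZ array and without the vehicle arrays were added after the values were seen.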

Additional observations from a re-analysis of the deposited data

Results flagged for a closer look

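For 3 genes the arrays of the groups compared lay apart without overlap in one direction in one setting and in the opposite direction in another. Such non-overlap is common against a single array. DBZ lay above vehicle for 35.5% of all tested probe sets and below for 43.6%. The combination lay above DBZ for 38.3% and below for 36.2%. The share of all probe sets with opposite directions was not computed. The log2 change with DBZ in Notch2 was 0.44 without dexamethasone and -0.36 with it, and in Dll4 it was -0.80 without and 0.21 with it. The log2 change with dexamethasone in Notch3 was -0.24 without DBZ and 1.08 with it, and in Dll4 it was -0.37 without and 0.64 with it. The limma interaction, which tests these differences, did not pass for Notch2 (adjusted p = 0.289), Notch3 (adjusted p = 0.154) or Dll4 (adjusted p = 0.225). All rest on the single DBZ array, and the second Dll4 probe set ran the opposite way. The second Notch3 probe set, fitted without the filter, had a log2 change with dexamethasone of 0.086 without DBZ and -0.056 with it.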

How the results depend on the processing

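Of the values of single genes under the alternatives, 31 turned in sign, and some of these, such as Hes1 with dexamethasone as deposited, also passed. Of those that kept their sign, 747 kept their side of the threshold, 32 newly passed and 14 no longer passed. On the deposited scale, where treated arrays are shifted against vehicle, 6 of 7 genes passed in DBZ against vehicle, 7 in dexamethasone against vehicle, 7 in the combination against vehicle and 4 in the interaction. The pseudocount of 1 and the fit without the intensity trend each called 1 gene, Notch3, in DBZ against vehicle. With the replicate block, 1 gene (Dll1) passed in dexamethasone against vehicle at -0.77 (adjusted p = 0.0422) and Spdef was lost, and no other call on a named gene changed; the block left 1 probe set in the combination against DBZ and 0 in the combination against dexamethasone. Leaving out any 1 of the 6 arrays other than DBZ gave 0 of 7 genes in all 6 contrasts, as did the fits without the DBZ array or without the vehicle arrays in the contrasts they left.

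Counts over all probe sets moved more. On the deposited scale calls were nearly all lower against vehicle: 129 higher and 9227 lower for DBZ (510 and 627 after scaling), 201 and 9974 for dexamethasone (985 and 657), 132 and 10707 for the combination (598 and 417), with 6379 and 118 for the interaction (282 and 263). For DBZ against vehicle (1137) they were 9356 as deposited, 538 without filter, 678 without trend and 691 to 984 with an array left out. For dexamethasone against vehicle (1642) they were 10175 as deposited, 1082 without filter and 570 to 1332 with an array left out, lowest without the first dexamethasone array. For the combination against vehicle (1015) they were 10839 as deposited, 623 without filter, 653 without trend and 160 to 938, lowest without the second combination array. For the combination against DBZ (45) they were 10 as deposited, 6 with quantiles, 7 with pseudocount 50, 5 without filter, 0 without trend, 199 with only the groups compared, 22 without the vehicle arrays and 0 to 30 with an array left out. For the combination against dexamethasone (4) they were 17 with only the groups compared, 17 without the vehicle arrays, 0 to 104 with an array left out (104 without the second dexamethasone array), and 0 as deposited, with quantiles, with pseudocount 1, with no or a stricter filter and without trend. For the interaction (545) they were 6497 as deposited, 233 without filter, 206 without trend and 92 to 567 with an array left out.

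Signs that turned, on the log2 scale in the order of the report's contrasts, were those of Dll4 on its other probe set (0.70, 0.068, 0.034, -0.66, -0.034, -0.73) and of Notch1 on its other probe set (0.23 in the combination against DBZ, 0.32 against dexamethasone). As deposited, Notch2 was -0.47 with DBZ, -0.81 with dexamethasone and 0.11 in the interaction, Hes1 -0.74 and Ccnd1 -0.33 with dexamethasone, and Psenen -0.75 with the combination. With quantiles, Notch1 was 0.024 and Notch3 0.086 in the combination against dexamethasone. With an array left out, Notch2 with dexamethasone ran from -0.080 to 0.28. In the combination against DBZ, Jag2 ran from -0.033 to 0.098, Dll1 from -0.39 to 0.52 and Hes1 from -0.0039 to 0.64. Against dexamethasone, Notch1 ran from -0.24 to 0.017, Notch3 from -0.14 to 0.12 and Dll1 from -0.17 to 0.74, and in the interaction Notch1 ran from -0.058 to 0.25 and Hes1 from -0.19 to 0.45. As deposited, the vehicle arrays had a trimmed mean of 500 and all others 250, and this difference enters every contrast that includes vehicle. The cause of the other turns was not tested. The stricter filter removed some members, and leaving out the DBZ array left no DBZ contrast. MAS5 signals carry no detection calls here, so signals near 12.3 have no order.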
